A study of Homo sapiens with 12 samples.

Results

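Sterol and fatty acid synthesis genes are the enzymes that build cholesterol and long-chain fatty acids from acetyl-CoA, together with the proteins that sense sterols and switch these enzymes on. The 32 genes described here were taken by symbol from a list of the pathway's genes, and all 32 were present among the 34602 genes of the authors' deposited table. RefSeq (GRCh38.p14) holds 30 of them under the listed symbol and 2 under a newer one: SC4MOL is now MSMO1, and SC5DL is now SC5D.

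The samples came from MDA-MB-231, an established triple-negative breast cancer line with mesenchymal features. All cells carried either a stable over-expression of the Glu-TTC tRNA locus chr1.trna5 (tRNA-Glu), a stable over-expression of the Arg-CCG tRNA locus chr16.trna1 (tRNA-Arg), or the mock control. Each line was collected after 0 or 9 h of α-amanitin at 10 µg/mL, which blocks RNA polymerase II, so that the loss of an mRNA over that time reflects its decay. The 6 groups held 2 arrays each, and the labels say neither whether these were separate cultures nor whether a line was 1 clone.

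Cholesterol is made from acetyl-CoA through mevalonate, isoprenoid diphosphates, squalene and lanosterol. When membranes of the endoplasmic reticulum run low in sterol, SCAP carries the SREBP transcription factors to the Golgi, where they are cut and released to the nucleus, and INSIG proteins hold SCAP back when sterol is plentiful. SREBP-2 (gene SREBF2) mainly drives sterol genes and SREBP-1 (gene SREBF1) mainly drives fatty acid genes, acting at promoters together with NF-Y and Sp1.

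The promoters are shown for 4 genes: SREBF2, FDPS, EBP and NSDHL. SREBF2 had the only one of the 28 windows searched that held the exact letters TCACNCCAC. The scores of FDPS and EBP for both tRNA lines are described below, and NSDHL was one of 2 genes with 5 CCAAT matches. Each printed promoter is the 250 bases before the RefSeq transcript start in GRCh38.p14, 5′ to 3′ on the strand of the gene. Capitals mark matches on either strand to TCACNCCAC (a sterol response element), CCAAT (the box bound by NF-Y) or GGGCGG (the GC box bound by Sp1). Other spellings of the sterol response element were not searched. In NSDHL a pair of CCAAT matches on opposite strands overlap.
SREBF2, chr22:41832855-41833104, plus strand: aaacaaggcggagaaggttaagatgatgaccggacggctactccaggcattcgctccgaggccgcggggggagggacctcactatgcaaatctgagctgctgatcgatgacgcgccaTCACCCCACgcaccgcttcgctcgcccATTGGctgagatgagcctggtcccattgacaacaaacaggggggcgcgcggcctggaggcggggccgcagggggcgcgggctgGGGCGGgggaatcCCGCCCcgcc
FDPS, chr1:155308616-155308865, plus strand: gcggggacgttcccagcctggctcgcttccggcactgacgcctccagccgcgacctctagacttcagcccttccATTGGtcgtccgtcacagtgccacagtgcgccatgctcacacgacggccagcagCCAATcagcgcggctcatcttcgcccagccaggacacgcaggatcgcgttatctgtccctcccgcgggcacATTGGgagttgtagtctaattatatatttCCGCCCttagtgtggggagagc
EBP, chrX:48521558-48521807, plus strand: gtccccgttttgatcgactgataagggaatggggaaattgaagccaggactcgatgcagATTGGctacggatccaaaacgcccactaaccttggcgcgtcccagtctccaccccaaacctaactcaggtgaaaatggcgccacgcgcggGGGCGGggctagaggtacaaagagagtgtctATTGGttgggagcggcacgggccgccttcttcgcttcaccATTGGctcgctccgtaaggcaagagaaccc
NSDHL, chrX:152830813-152831062, plus strand: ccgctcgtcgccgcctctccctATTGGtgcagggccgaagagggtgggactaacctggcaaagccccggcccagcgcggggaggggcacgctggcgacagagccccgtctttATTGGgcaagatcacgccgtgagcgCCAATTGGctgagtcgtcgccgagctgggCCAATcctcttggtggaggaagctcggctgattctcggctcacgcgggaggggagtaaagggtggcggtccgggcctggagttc

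A promoter was found for 28 of the 32 genes, all but ACAT2, FDFT1, SQLE and FASN. All counts below are over those 250 bases on both strands. TCACNCCAC was present in 1 of 28 (3.57%), against 0.884% of 15843 protein-coding promoters. CCAAT was present in 17 of 28 (60.7%), against 34.5% of protein-coding promoters. GGGCGG was present in 25 of 28 (89.3%), against 56% of protein-coding promoters. MVK and NSDHL held 5 CCAAT matches each and SC4MOL held 4, while PMVK, IDI1, CYP51A1, SREBF1, SCAP, INSIG2, ACACA, ELOVL6 and FADS1 held GC boxes without CCAAT. These are matches of letters, and the stability scores are meant to read the loss of mRNA, not the activity of a promoter.

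**Figure D1:**
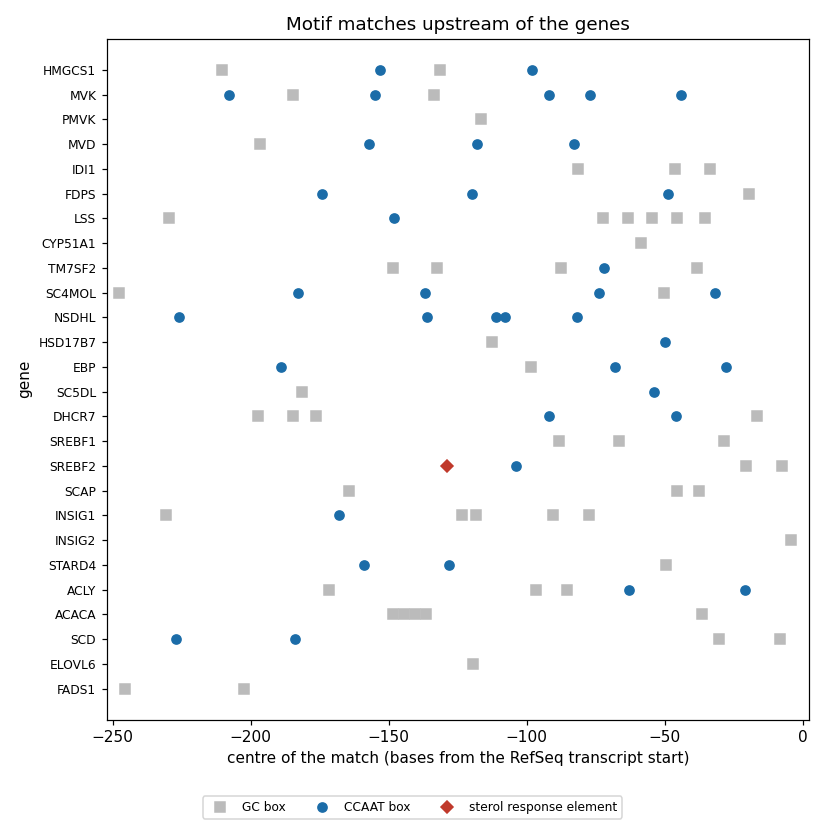
Matches in the 250 bases before the RefSeq transcript start, for the 26 genes with at least 1 match among the 28 searched. The x axis is the distance of the centre of each match from the transcript start in bases, each line of the y axis is a gene, and colours separate the 3 motifs. CCAAT boxes (circles) lie upstream of 17 genes, and the single match to TCACNCCAC, the sterol response element searched (diamond), lies upstream of SREBF2.

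Both SREBF genes also carry a microRNA in an intron, and the mature forms made from the 5′ arm are shown because they share a seed (bases 2 to 8, in capitals). The miR-33 family is known to repress genes of cholesterol export and fatty acid oxidation. Sequences are from RefSeq, GRCh38.p14.
hsa-miR-33a-5p, chr22:41900949-41900969, plus strand: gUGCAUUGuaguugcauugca
hsa-miR-33b-5p, chr17:17813897-17813916, minus strand: gUGCAUUGcuguugcauugc

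For the rows named MIR33A and MIR33B, the authors' deposited table gave tRNA-Glu scores of -0.0184 and 0.112. It gave tRNA-Arg scores of 0.0358 and -0.0508 for them in the same order, per the authors' deposited table. All 4 values lay inside the central 90% of all genes per the authors' deposited table.

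On the arrays as a whole, the 75th percentile of non-normalized intensity was 172.4 to 224.6 over the 0 h arrays and 134.4 to 153.6 over the 9 h arrays. One array stood apart: tRNA-Glu 0 h replicate 1 had the highest 75th percentile and lay at 30.1 on the second principal component (9.34% of the variance), where the other 11 arrays lay between -12.1 and 10.2. The stability scores exist only as 1 value per gene and line, so they could not be recomputed without that array, and its part in any score was not tested. Across 17810 probes above the median intensity on every array, tRNA-Glu stability differences made from the replicate 1 arrays and from the replicate 2 arrays correlated at a Pearson r of 0.303. For tRNA-Arg that r was 0.16. Probes share arrays within each set and are not independent, so these r values describe how far a difference of this kind repeated. No table used here pairs probes with genes, so no gene below has a value per array, an error or a p-value, and the cell line's own markers could not be read.

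A score per the authors' deposited table is signed, and by its header a positive score is read as an mRNA more stable in the tRNA line than in control cells. The authors' processed intensities had array medians of 56.2 to 56.3, so a score made from them would be relative to the other mRNAs measured. How the score was computed, and on which scale, the authors' deposited table does not state, so scores are placed by their rank among all genes. Differences between log values of a single probe, from the authors' processed intensities, gave both scores to within 1e-06 for 0 of 34602 genes with log2 or the natural log and for 1 with log10, so that plain form was not found. The lowest 5% of genes had tRNA-Glu scores of -0.192 or less and the highest 5% had 0.203 or more per the authors' deposited table. For tRNA-Arg those limits were -0.127 and 0.132 per the authors' deposited table. The SD of all scores was 1.59 times as large for tRNA-Glu as for tRNA-Arg per the authors' deposited table, so sizes do not compare directly between the lines. Both lines were scored against the same control, which both scores of a gene share. A gene low or high for both lines is therefore not an independent repeat.

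The 32 genes, a list set with earlier results of these data known, spread widely in both directions. For tRNA-Glu, 5 of 32 (15.6%) were in the lowest 5% of scores and 6 (18.8%) in the highest 5%, where all genes give 5% at each end, per the authors' deposited table. For tRNA-Arg, 9 of 32 (28.1%) were in the lowest and 5 (15.6%) in the highest 5%, again against 5% of all genes at each end, per the authors' deposited table. By these limits, genes with a proper name (leaving out placeholders like LOC numbers) gave 7.22% at the low and 5.91% at the high end for tRNA-Glu. For tRNA-Arg they gave 6.57% and 5.79%, from the authors' deposited table. When the limits were drawn from genes with a proper name, 3 rather than 5 of the 32 genes were in the lowest 5% for tRNA-Glu. IDI1 and DHCR7 were no longer among them, per the authors' deposited table. The median score of the 32 genes was -0.0473 for tRNA-Glu, where all genes had 0.00489, per the authors' deposited table. For tRNA-Arg the median was -0.0320, where all genes had 0.00166, per the authors' deposited table. The middle of the list thus lay slightly below the middle of all genes for each line, and its ends lay on both sides.

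Olfactory receptor genes, a class not expected to be expressed in breast cells, give a scale for scores of mRNAs near background. The central 95% of their 377 tRNA-Glu scores ran from -0.0981 to 0.103 per the authors' deposited table. For tRNA-Arg the range was -0.117 to 0.0932 per the authors' deposited table. Outside it lay 20 of the 32 genes (62.5%) for tRNA-Glu, against 24.7% of all genes, and 16 (50%) for tRNA-Arg, against 16.1% of all genes, per the authors' deposited table. Of genes with a proper name, 29.9% and 18.5% lay outside in the same order, from the authors' deposited table. Of the 39 other lipid genes described below, 51.3% and 38.5% did, from the authors' deposited table. Expression level by gene was not read here, so its part in these shares was not tested.

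**Figure D2:**
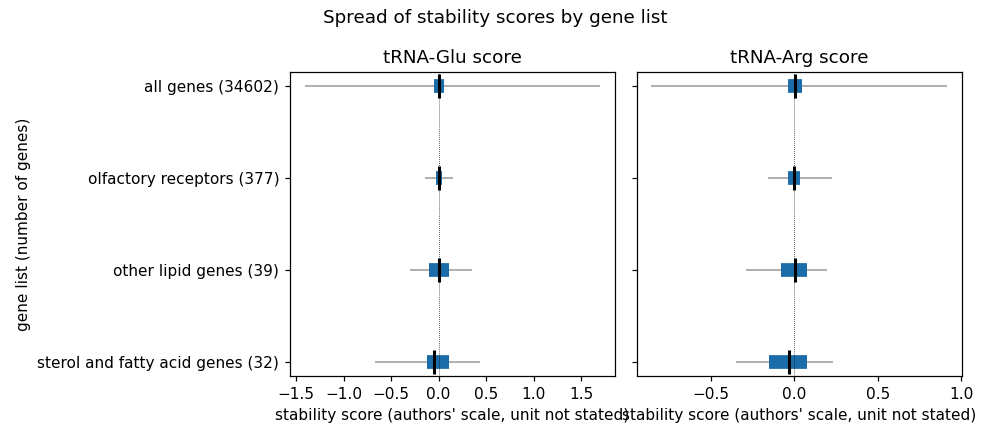
Stability scores of 4 gene lists for tRNA-Glu (left) and tRNA-Arg (right), on the authors' scale, whose unit is not stated. Black ticks are medians, thick bars the interquartile range and thin lines the full range, with the number of genes in brackets. The middle bar of the 32 sterol and fatty acid genes is wider than that of the 377 olfactory receptors in both lines. So is the bar of the 39 other lipid genes.

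The early steps, from acetyl-CoA to farnesyl and geranylgeranyl diphosphate, had 8 genes with a median of -0.0319 for tRNA-Glu and -0.0936 for tRNA-Arg per the authors' deposited table. ACAT2, the cytosolic thiolase that joins acetyl units, had -0.165 for tRNA-Glu and -0.0419 for tRNA-Arg per the authors' deposited table. HMGCS1, the cytosolic HMG-CoA synthase, had 0.0994 and 0.00545 in the same order per the authors' deposited table. Both were inside the central 90% of all genes for each line.
The kinases MVK and PMVK phosphorylate mevalonate in turn, and MVD then removes a carboxyl group to give isopentenyl diphosphate. MVK had -0.0331 for tRNA-Glu and -0.167 for tRNA-Arg per the authors' deposited table. PMVK had -0.246 for tRNA-Glu and -0.00667 for tRNA-Arg per the authors' deposited table. MVD had 0.0214 for tRNA-Glu and 0.204 for tRNA-Arg per the authors' deposited table. Each of these 3 consecutive enzymes was in an outer 5% for 1 line only: PMVK at the low end for tRNA-Glu, MVK at the low end and MVD at the high end for tRNA-Arg.
IDI1, which interconverts the 2 isopentenyl isomers, was low for both lines, at -0.235 for tRNA-Glu and -0.315 for tRNA-Arg per the authors' deposited table. That placed it at percentiles 3.68 and 0.318 per the authors' deposited table, and the tRNA-Glu score was outside the lowest 5% with limits drawn without placeholder names. FDPS, which builds farnesyl diphosphate, was in opposite tails, with 0.326 for tRNA-Glu (percentile 98.2) and -0.185 for tRNA-Arg (percentile 2.03) per the authors' deposited table. FDPS was the only one of the 32 genes in the highest 5% for one line and the lowest 5% for the other. GGPS1, which extends farnesyl to geranylgeranyl diphosphate for protein prenylation, had -0.0307 for tRNA-Glu and -0.145, in the lowest 5%, for tRNA-Arg per the authors' deposited table.

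The 3 enzymes that make lanosterol were inside the central 90% of all genes for each line. FDFT1, squalene synthase, had 0.0291 for tRNA-Glu and -0.0775 for tRNA-Arg per the authors' deposited table. SQLE, the squalene epoxidase that is a rate-limiting step of the pathway, had -0.0616 and -0.0907 in the same order per the authors' deposited table. LSS, which closes the rings to lanosterol, had -0.158 for tRNA-Glu and -0.0195 for tRNA-Arg per the authors' deposited table.

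The late steps, from lanosterol to cholesterol, held the widest contrasts among the enzymes. Of these 8 genes, 4 had a tRNA-Glu score in the highest 5% and 2 one in the lowest 5% per the authors' deposited table. For tRNA-Arg, the highest 5% held 3 and the lowest 5% held 1 per the authors' deposited table. All 8 tRNA-Glu scores were outside the central 95% of olfactory receptor scores, and so were 4 of those for tRNA-Arg, per the authors' deposited table. The shares of all genes outside it were 24.7% and 16.1% in the same order, from the authors' deposited table. TM7SF2, at -0.102 for tRNA-Glu, was just past the lower end of -0.0981.
CYP51A1, which removes the 14α-methyl group of lanosterol, had 0.278 for tRNA-Glu (percentile 97.4) and 0.0350 for tRNA-Arg (percentile 70.1) per the authors' deposited table. TM7SF2, a sterol reductase that follows it, had -0.102 and -0.0869 in the same order per the authors' deposited table. The next 3 genes encode the complex that removes the methyl groups at carbon 4, and all 3 had positive scores for both lines. Of all genes, 52.8% had a positive score for tRNA-Glu and 51.0% for tRNA-Arg, from the authors' deposited table. The oxidase SC4MOL had 0.160 for tRNA-Glu and 0.0507 for tRNA-Arg per the authors' deposited table. The decarboxylating dehydrogenase NSDHL had 0.215 and 0.139 in the same order per the authors' deposited table. The ketoreductase HSD17B7 had 0.269 and 0.204 in the same order per the authors' deposited table. NSDHL and HSD17B7 were in the highest 5% for each line, and SC4MOL for neither, though with limits drawn from genes without placeholder names NSDHL was just inside the central 90% for both.
EBP, the isomerase that shifts the ring double bond after demethylation, had the lowest score of the 32 genes for both lines, at -0.671 for tRNA-Glu and -0.351 for tRNA-Arg per the authors' deposited table. That placed it at percentiles 0.231 and 0.191 per the authors' deposited table. SC5DL, the desaturase that acts on the product of EBP, lay at the other end, at 0.360 for tRNA-Glu (percentile 98.7) and 0.231 for tRNA-Arg (percentile 99.1) per the authors' deposited table. Consecutive enzymes of the pathway thus held the lowest and, for tRNA-Arg, the highest score of the list. DHCR7, which makes cholesterol from 7-dehydrocholesterol, had -0.196 for tRNA-Glu, just past the limit of the lowest 5% (and not past it without placeholder names), and -0.0221 for tRNA-Arg per the authors' deposited table. Just inside that limit for tRNA-Glu lay ACAT2, at -0.165 per the authors' deposited table.

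**Figure D3:**
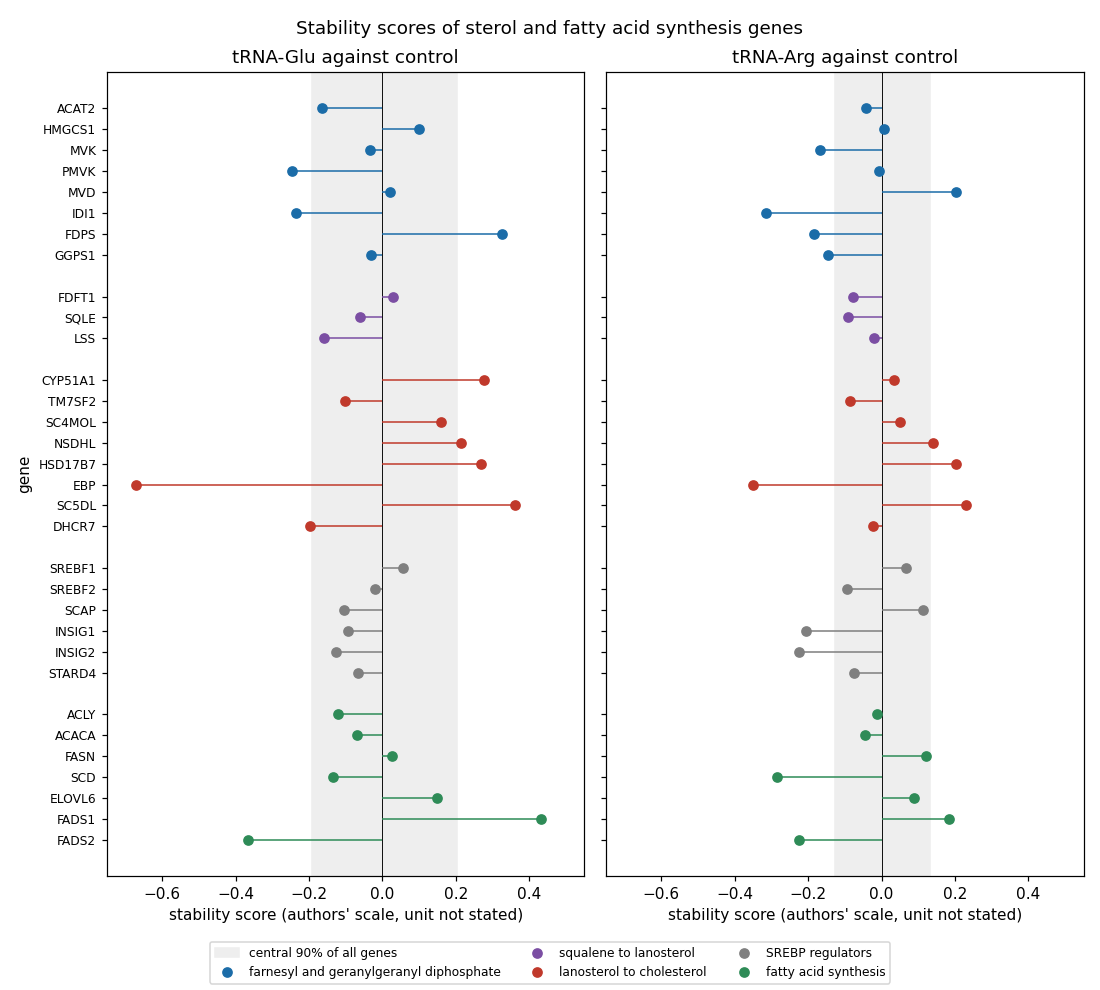
Stability scores of the 32 genes for tRNA-Glu (left) and tRNA-Arg (right) against control, in pathway order from top to bottom and coloured by role. The x axis is the authors' score, whose unit is not stated, the line runs from 0 to the score, and the grey band holds the central 90% of all genes. EBP reaches -0.671 and -0.351, and its neighbour SC5DL lies at 0.360 and 0.231.

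Among the 6 regulators no tRNA-Glu score was in an outer 5%, and 2 tRNA-Arg scores were in the lowest 5%, per the authors' deposited table. The transcription factor gene SREBF1 had 0.0552 for tRNA-Glu and 0.0670 for tRNA-Arg per the authors' deposited table. SREBF2 had -0.0197 and -0.0942 in the same order per the authors' deposited table. SCAP, their escort protein, had -0.105 for tRNA-Glu and 0.112 for tRNA-Arg per the authors' deposited table. The 3 core genes of the SREBP switch were thus all inside the central 90% for each line.
The genes of the retention proteins INSIG1 and INSIG2 were the pair in the lowest 5% for tRNA-Arg. INSIG1 had -0.0923 for tRNA-Glu and -0.207 for tRNA-Arg (percentile 1.56) per the authors' deposited table. INSIG2 had -0.125 for tRNA-Glu and -0.224 for tRNA-Arg (percentile 1.25) per the authors' deposited table. STARD4, a soluble sterol carrier, had -0.0669 and -0.0760 in the same order per the authors' deposited table, inside the central 90% for each line.

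The 7 genes of fatty acid synthesis had medians of -0.0701 for tRNA-Glu and -0.0113 for tRNA-Arg per the authors' deposited table. ACLY, which makes cytosolic acetyl-CoA from citrate, had -0.121 for tRNA-Glu and -0.0113 for tRNA-Arg per the authors' deposited table. ACACA, the carboxylase that makes malonyl-CoA, had -0.0701 and -0.0446 in the same order per the authors' deposited table. FASN, the fatty acid synthase, had 0.0271 and 0.120 in the same order per the authors' deposited table. The 3 enzymes that make palmitate were therefore inside the central 90% of genes for each line, as was the elongase ELOVL6, with 0.148 for tRNA-Glu and 0.0892 for tRNA-Arg per the authors' deposited table.
The desaturases lay further out. SCD, which puts the first double bond into saturated chains, had -0.135 for tRNA-Glu and -0.286 (percentile 0.526) for tRNA-Arg per the authors' deposited table. FADS1, the delta-5 desaturase of polyunsaturated fatty acids, had the highest tRNA-Glu score of the 32 genes, 0.433 (percentile 99.2), and 0.184 (percentile 97.9) for tRNA-Arg per the authors' deposited table. FADS2, the delta-6 desaturase, was at the opposite end, at -0.366 (percentile 1.56) for tRNA-Glu and -0.224 (percentile 1.27) for tRNA-Arg per the authors' deposited table. FADS1, FADS2 and FADS3 are consecutive protein-coding genes on chromosome 11 in RefSeq. FADS3, not one of the 32 genes, had -0.213 for tRNA-Glu and -0.158 for tRNA-Arg, each in the lowest 5%, per the authors' deposited table. With limits drawn without placeholder names, the tRNA-Glu score of FADS3 was outside the lowest 5%.

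The gap between the lines was taken as the tRNA-Glu score minus the tRNA-Arg score of the same gene. The form of the score is not known, so it is not known whether the shared control cancels in the gap, and no gap was tested. Because the tRNA-Glu scores spread more widely, each gap is also given with both scores first divided by the SD of all genes for their line, a scale added after seeing the data. Of the 32 genes, 3 had a gap in the highest 5% of all genes and 5 had one in the lowest 5%, where all genes give 5% at each end, from the authors' deposited table. On the SD scale the highest 5% held 8 genes and the lowest 5% held 3, from the authors' deposited table.
FDPS had the largest gap on both scales, 0.512 as scored and 4.62 SD, each at percentile 99.9 of all genes, from the authors' deposited table. CYP51A1 was in the highest 5% on both, at 0.243 and 1.65 SD, from the authors' deposited table. FADS1, second as scored at 0.250, had 1.05 SD and was then inside the central 90% of genes, from the authors' deposited table. SCD, IDI1, INSIG1, MVK, INSIG2 and GGPS1 were in the highest 5% on the SD scale only, led by SCD at 2.38 SD, from the authors' deposited table. These 6 genes were all in the lowest 5% for tRNA-Arg. The gap subtracts the tRNA-Arg score, so this overlap is partly built into the gap.
PMVK, SCAP and MVD were in the lowest 5% on both scales. As scored their gaps were -0.239, -0.216 and -0.182, and on the SD scale -1.75, -2.10 and -2.25, from the authors' deposited table. EBP, the lowest as scored at -0.320, had -0.836 SD and was then inside the central 90% of genes, from the authors' deposited table. DHCR7 likewise had -0.174 as scored and -1.19 SD, from the authors' deposited table.

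**Figure D4:**
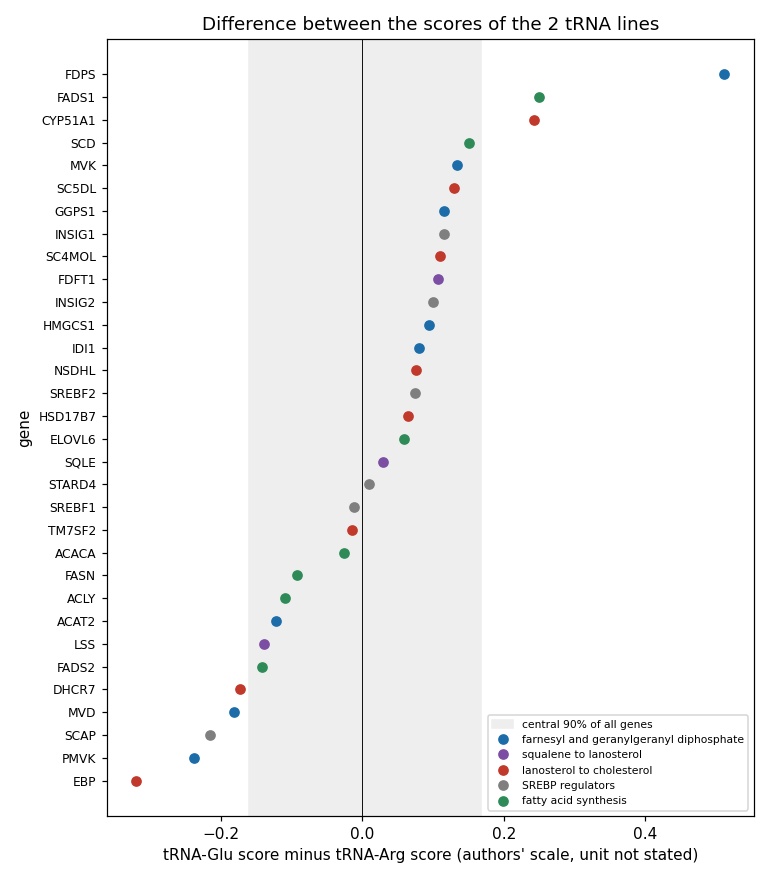
The tRNA-Glu score minus the tRNA-Arg score for each of the 32 genes, on the authors' scale, sorted from the highest at the top, with colours for the pathway role. The grey band holds the central 90% of all genes. FDPS lies highest at 0.512, as it does on the SD scale, whereas EBP, lowest here at -0.320, and FADS1, second at 0.250, are inside the central 90% of genes on that scale.

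A second list held 40 other genes of lipid synthesis, sterol transport and prenylation, of which 39 were present. For tRNA-Glu 7 were in the highest 5% (17.9%) and 5 in the lowest 5% (12.8%), and for tRNA-Arg 3 (7.69%) and 6 (15.4%), per the authors' deposited table. Their medians were 0.00620 for tRNA-Glu and 0.00556 for tRNA-Arg per the authors' deposited table. With limits drawn from all genes, the share was above their 5% at all 4 ends in this list too, though the 7.69% for tRNA-Arg rests on 3 genes. By the same limits, genes with a proper name gave 5.91% at the high and 7.22% at the low end for tRNA-Glu. For tRNA-Arg they gave 5.79% and 6.57%, from the authors' deposited table. With limits drawn from genes with a proper name, the low limit for tRNA-Glu was -0.242, and MBTPS2, FADS3, DHDDS and MYLIP were not past it. Only LBR then stayed in the lowest 5% for tRNA-Glu, so that share was no longer above 5%. For tRNA-Arg that low limit was -0.145, and LBR and SOAT1 were not past it, from the authors' deposited table.
Of enzymes and their partners, MID1IP1, which activates acetyl-CoA carboxylase, had 0.354 for tRNA-Glu and 0.0957 for tRNA-Arg per the authors' deposited table. LPIN1, a phosphatidate phosphatase, had 0.348 and 0.175 in the same order per the authors' deposited table. The acyl-CoA synthetase ACSL1 had 0.225 and 0.0639, and ACSL3 -0.121 and -0.200, in the same order per the authors' deposited table. ACAT1, the mitochondrial thiolase, and LBR, a nuclear envelope protein with sterol reductase activity, lay apart. ACAT1 had 0.226 for tRNA-Glu and 0.00933 for tRNA-Arg per the authors' deposited table. LBR had -0.301 for tRNA-Glu and -0.128 for tRNA-Arg per the authors' deposited table.
Of genes for sterol and fatty acid handling, TMEM97, a sterol-responsive membrane protein, had 0.326 for tRNA-Glu and 0.0348 for tRNA-Arg per the authors' deposited table. NPC1, which exports cholesterol from lysosomes, had 0.165 and 0.197, and SOAT1, which esterifies it, -0.132 and -0.131, in the same order per the authors' deposited table. ABCA1, the cholesterol efflux pump, had -0.112 and -0.291, and MYLIP, a ubiquitin ligase for lipoprotein receptors, -0.196 and -0.292, in the same order per the authors' deposited table. By the limits drawn from all genes, ABCA1 was in the lowest 5% for tRNA-Arg and MYLIP for both lines.
Of the remaining genes in an outer 5%, the fatty acid carrier FABP5 had 0.237 for tRNA-Glu and 0.0942 for tRNA-Arg per the authors' deposited table. FNTB, a subunit of farnesyltransferase, had 0.234 and 0.168 in the same order per the authors' deposited table. DHDDS, of dolichol synthesis, had -0.205 and -0.0800, and MBTPS2, the site-2 protease that cuts SREBPs, -0.217 and -0.0671, in the same order per the authors' deposited table. FNTB was in the highest 5% for both lines. DHDDS and MBTPS2 were in the lowest 5% for tRNA-Glu by the limits drawn from all genes only.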

How the data were processed

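RNA from 12 samples in 6 groups of 2 was hybridised to Illumina expression BeadChips. The authors' deposited table holds a stability score per gene and tRNA line, with formula and scale not stated. The deposited non-normalized table holds bead intensity per probe (47231 probes), before normalization per the file headers. The labels name lumi without a version or step, and further steps were not stated in the labels or headers. Its 12 detection columns name no sample and were not used. The authors' deposited processed intensity values served only to check the form of the scores and to give the array medians.

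Members and lists were chosen with earlier results of these data known. Every member was named with both scores, and other lipid genes only when in an outer 5%. The percentile of a score is the share of all genes below it. No test was made, since scores have no replicates, and the planned limma fits were not run because no table pairs probes with genes. The planned glutamate and arginine content of proteins was not analysed here. Intensities were taken as log2 and quantile normalized for the principal components and the r between replicate sets. Precision is limited by there being 2 arrays a group. The motif search and percentile rules were tested on simulated data. Tools were Python 3.11.15, pandas 2.3.3, numpy 2.4.6 and matplotlib 3.10.9.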

Additional observations from a re-analysis of the deposited data

How the results depend on the processing

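The scores could not be remade with an array left out, with another background, normalization or filter, or from the authors' processed values, so those fits were not run. No paired analysis was possible because the scores carry no replicates. With the mean in place of the median, the list's tRNA-Glu value was -0.0180 instead of -0.0473, and that for tRNA-Arg -0.0386 instead of -0.0320, from the authors' deposited table. Divided by the SD of all genes, the medians were -0.352 and -0.379, from the authors' deposited table. Without placeholder names in the background, 3 rather than 5 genes were in the lowest 5% for tRNA-Glu, and the other ends held 5 (highest, tRNA-Glu), 9 and 4 (lowest and highest, tRNA-Arg), with IDI1, DHCR7 and NSDHL the genes lost, from the authors' deposited table. Against the central 95% of olfactory receptor scores, a comparison chosen after seeing the data, 12 were below and 8 above for tRNA-Glu, and 9 and 7 for tRNA-Arg, from the authors' deposited table. Of all 34602 genes, 4043 were below and 4519 above for tRNA-Glu, and 2072 and 3504 for tRNA-Arg, from the authors' deposited table. No member was listed under 2 names, so averaging older and newer symbols left both medians at their values.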

Other observations

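Some of the 32 genes have close relatives that are listed apart. The processed pseudogene FDPSL2A had 0.0540 for tRNA-Glu and 0.0980 for tRNA-Arg per the authors' deposited table, while FDPS itself had 0.326 and -0.185 there. HSD17B7P2 had 0.0000262 for tRNA-Glu and 0.0171 for tRNA-Arg per the authors' deposited table, both nearer 0 than HSD17B7. IDI2, a paralogue of IDI1, had -0.0434 and -0.0433 in the same order per the authors' deposited table. MIR1908, which lies in FADS1, had 0.0563 and 0.0216 in the same order per the authors' deposited table. None of these was in an outer 5% for either line.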
